A study of Mus musculus with 8 samples.

Results

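Genes of the germline and of meiosis were followed in newly made RNA of mouse embryonic stem cells whose CTCF, the zinc-finger protein that anchors chromatin loops, could be degraded and replaced. The genes were 10 named ones, Prdm1, Dazl, Ddx4, Mael, Sycp1, Sycp3, Hormad1, Taf7l, Slc25a31 and Tex101, and the rows of the deposited table that carry these symbols were taken. The table listed 16940 genes and held 9 of the 10, while Tex101 had no row. In the direct comparison of cells carrying mutated and wild-type CTCF, 8 of the 9 differed: Dazl, Prdm1, Taf7l and Slc25a31 were lower with mutated CTCF, and Mael, Ddx4, Sycp3 and Hormad1 were higher. Of all genes tested, 34.7% passed the same threshold in that comparison. The genes were chosen with earlier results of these data known, so these shares do not test the list.

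The cells were of the E14 line, and all 4 groups carried the CTCF AID genotype, in which an auxin-inducible degron lets IAA, an auxin, trigger removal of the tagged protein. A line with a control overexpression construct was measured without IAA ("untreated control") and after 12 h of IAA ("IAA control"). A line overexpressing wild-type CTCF and a line overexpressing mutated CTCF were each measured after 12 h of IAA only, and the labels do not name the mutation. Each group had 2 libraries, and the labels do not say whether these came from separate cultures or clones. The p-values therefore measure only the spread between these libraries, which may be technical. For each gene that spread was pooled over the 4 groups and drawn toward the spread of genes of similar level. Cells grew without serum, with leukemia inhibitory factor, 1 µM PD0325901 and 3 µM CHIR99021. New RNA was labelled by a 15 min pulse of 400 µM 4-thiouridine, fragmented and captured (TT-seq), so a value follows recent transcription more closely than the amount of stored RNA. Because only cell pools were measured, fewer cells using a gene and less RNA per cell cannot be told apart.

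Germline genes are kept low in most cells of the embryo and body until primordial germ cells form. Many have promoters rich in CG dinucleotides that are held down by DNA methylation and by the non-canonical Polycomb complex PRC1.6, in which MGA with MAX recognizes the E-box CACGTG and E2F6 recognizes E2F-type sites. Embryonic stem cells in medium with inhibitors of MEK and GSK3, such as PD0325901 and CHIR99021, have low DNA methylation and transcribe a number of these genes without entering meiosis. CTCF binds a long motif whose core includes CCCTC, the letters that gave it its name.

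The promoters are shown so that the letters known from repressors of germline genes can be read beside the values. For each gene the window runs from 250 bases before to 50 bases after the start site in NCBI RefSeq on GRCm38.p6, written 5′ to 3′ on the gene's own strand with each E-box CACGTG in capitals. The first 4 belong to the genes that were higher with mutated than with wild-type CTCF, at chr1:166238695-166238994 (minus strand, Mael), chr13:112652261-112652560 (minus, Ddx4), chr10:88459337-88459636 (plus, Sycp3) and chr3:95559427-95559726 (plus, Hormad1). Taf7l, at chrX:134476441-134476740 (minus), was lower but also holds an E-box. Dazl, at chr17:50293571-50293870 (minus), was lower and holds none.
Mael: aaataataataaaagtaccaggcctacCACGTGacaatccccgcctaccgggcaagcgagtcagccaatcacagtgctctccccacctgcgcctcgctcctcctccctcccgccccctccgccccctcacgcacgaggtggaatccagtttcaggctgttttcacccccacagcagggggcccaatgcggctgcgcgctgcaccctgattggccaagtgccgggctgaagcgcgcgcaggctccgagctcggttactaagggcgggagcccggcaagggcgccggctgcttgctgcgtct
Ddx4: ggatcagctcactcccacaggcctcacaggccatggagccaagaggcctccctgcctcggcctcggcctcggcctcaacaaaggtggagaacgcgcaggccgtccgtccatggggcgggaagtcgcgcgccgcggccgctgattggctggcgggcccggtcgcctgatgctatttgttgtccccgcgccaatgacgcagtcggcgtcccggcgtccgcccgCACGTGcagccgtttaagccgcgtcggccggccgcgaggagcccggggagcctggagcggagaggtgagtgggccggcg
Sycp3: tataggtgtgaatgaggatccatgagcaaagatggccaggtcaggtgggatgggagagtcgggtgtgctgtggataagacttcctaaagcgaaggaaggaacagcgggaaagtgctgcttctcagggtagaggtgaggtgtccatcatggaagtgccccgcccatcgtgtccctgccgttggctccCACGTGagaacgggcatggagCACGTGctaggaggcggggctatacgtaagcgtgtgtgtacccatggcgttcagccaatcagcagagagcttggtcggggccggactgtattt
Hormad1: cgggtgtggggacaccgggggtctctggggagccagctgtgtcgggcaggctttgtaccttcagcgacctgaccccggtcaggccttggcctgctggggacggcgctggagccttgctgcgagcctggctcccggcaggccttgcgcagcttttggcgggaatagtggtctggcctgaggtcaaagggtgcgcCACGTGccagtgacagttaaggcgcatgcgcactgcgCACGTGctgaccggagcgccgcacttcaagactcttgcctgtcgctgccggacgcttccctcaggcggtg
Taf7l: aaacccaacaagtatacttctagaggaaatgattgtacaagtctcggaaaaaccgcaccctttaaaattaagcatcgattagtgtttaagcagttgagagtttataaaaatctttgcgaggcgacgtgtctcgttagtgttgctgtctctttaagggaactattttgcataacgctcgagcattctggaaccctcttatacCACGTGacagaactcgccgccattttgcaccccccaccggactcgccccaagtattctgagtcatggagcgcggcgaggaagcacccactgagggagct
Dazl: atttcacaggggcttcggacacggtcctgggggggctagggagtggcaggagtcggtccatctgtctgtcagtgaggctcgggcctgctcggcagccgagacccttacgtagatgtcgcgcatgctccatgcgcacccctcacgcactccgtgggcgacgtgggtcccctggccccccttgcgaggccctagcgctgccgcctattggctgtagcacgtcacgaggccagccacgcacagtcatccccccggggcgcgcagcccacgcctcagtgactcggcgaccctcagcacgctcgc

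The palindrome CACGTG occurred in 7 of the 9 windows, 9 times in all, against 7.15% of the 32851 mouse promoter windows of the same length. Sycp3 and Hormad1 each held 2, at bases -64 and -43 and at bases -57 and -20 counted from the start site. Ddx4 held 1 at -29, Taf7l at -49, Slc25a31 at -93, Sycp1 at -94 and Mael at -223. The E2F-type letters TTCCCGC or their reverse complement GCGGGAA occurred in 4 of 9 windows (Ddx4, Sycp3, Hormad1 and Slc25a31), against 4.6% of all windows. The letters CCCTC or GAGGG occurred in 7 of 9, against 66% of all windows. No match of one motif shared a base with a match of another. The 9 windows held 15 to 38 CG dinucleotides each, Ddx4 the most and Sycp3 the fewest, while the median over all windows was 7 (quartiles 3 and 20). The shares of all windows were not matched for CG content, and the E-box and the E2F-type letters themselves contain CG. The windows of Dazl and Prdm1 held neither an E-box nor the E2F-type letters. The Prdm1 window begins at a RefSeq start 69753 bases from the GENCODE start of the gene, and the Ddx4 start sites differ by 165 bases. A match to these letters is a description of the window and not a measured site.

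**Figure D1:**
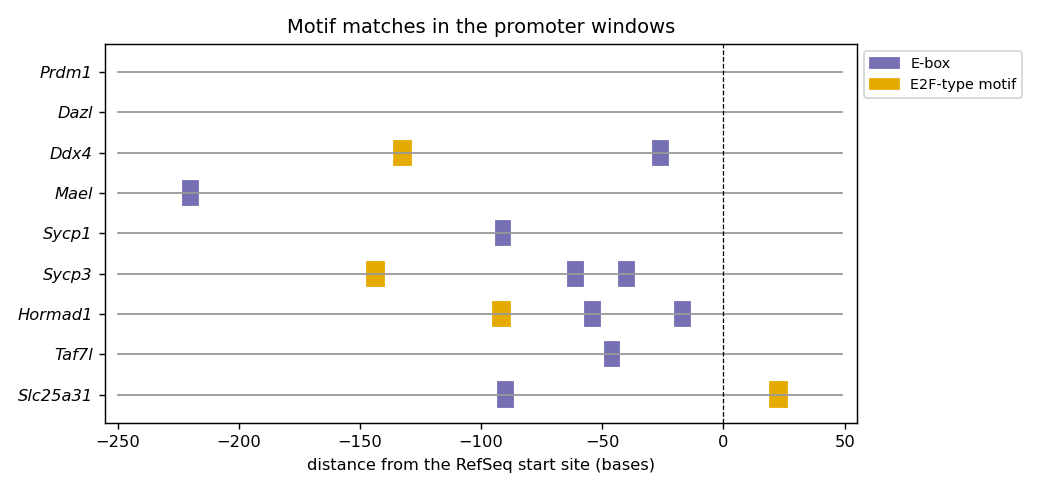
Positions of the E-box and of the E2F-type letters in the promoter windows of the 9 genes, as distance in bases from the RefSeq start site; each box spans the bases of 1 match. Prdm1 and Dazl hold neither motif, and Sycp3 and Hormad1 hold 2 E-boxes each.

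The libraries held between 15671114 and 21561141 reads at the listed genes, recovered from the table's steps. Depending on the library, 1 read was worth 0.836 to 1.19 normalized reads. All 9 genes had a mean of at least 10 normalized reads over the 8 libraries and were among the 15818 genes tested. All 8 embryonic stem cell markers were listed, summing to 50190 to 61065 normalized reads per library, highest in the lines with wild-type (57658 to 61065) and mutated CTCF (57303 to 59793). None of 8 feeder fibroblast markers was listed, and of 8 markers of testis somatic cells only Star was (104 to 149). Of 12 markers of 2-cell-like cells, a rare state of these cultures, 1 was listed, Zscan4d, at 4.18 and 6.90 in the untreated control, 3.30 and 3.57 in the IAA control, 11.8 and 15.7 with wild-type CTCF and 3.95 and 5.22 with mutated CTCF. Of 8 primitive endoderm markers 5 were listed, summing to 434 and 476 normalized reads in the untreated control, 521 and 560 in the IAA control, 442 and 474 with wild-type CTCF and 385 and 410 with mutated CTCF. Of 8 trophectoderm markers 5 were listed, at 168 and 184, 225 and 239, 231 and 254, and 166 and 180 in the same order. Both sums were higher with wild-type than with mutated CTCF, without overlap. The Ctcf gene itself is not analysed here.

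Levels of different genes can be set beside each other only per length. Per kb of exon in the untreated control, Hormad1 stood highest at 836 normalized reads, followed by Sycp3 at 274, Dazl at 259, Mael at 63.0, Prdm1 at 50.6, Ddx4 at 48.6, Sycp1 at 32.8, Taf7l at 19.06 and Slc25a31 at 15.2. Of neighbours in this order, only Sycp3 and Dazl had overlapping libraries. Whether introns were counted is not stated, and per kb of gene body the order changed, with Dazl at 69.3, Hormad1 at 51.6 and Sycp3 at 25.3 ahead of the other 6 genes, which lay between 0.992 (Sycp1) and 3.09 (Prdm1). Hormad1, Dazl and Sycp3 led on both scales.

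**Figure D2:**
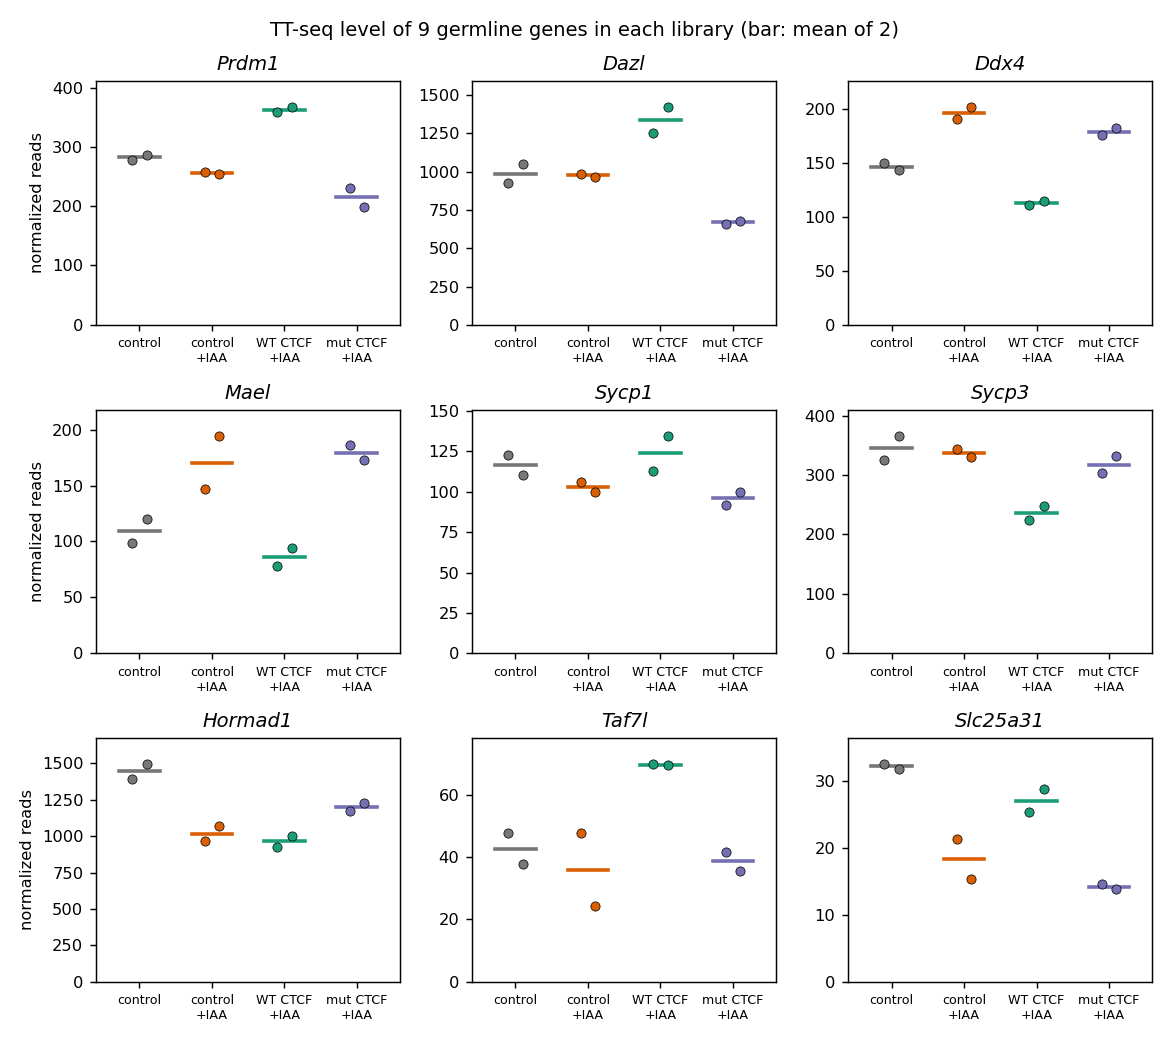
Normalized reads (vertical axis, linear from 0) of each of the 9 genes in the 8 libraries; points are libraries and bars the mean of the 2 libraries of a group. Dazl and Prdm1 are highest with wild-type CTCF and lowest with mutated CTCF, Mael and Ddx4 are lowest with wild-type CTCF, and Hormad1 is highest in the untreated control.

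Prdm1 (also called BLIMP1; ENSMUSG00000038151.13, chromosome 10, 44437177 to 44528501, minus strand; positions here and below are gene bodies of protein-coding genes in GENCODE M21 on GRCm38) encodes the repressor that starts the primordial germ cell programme by silencing somatic genes. Its libraries held 278 and 287 normalized reads in the untreated control, 257 and 254 in the IAA control, 358 and 367 with wild-type CTCF, and 231 and 199 with mutated CTCF. All 4 groups were separate, with wild-type CTCF on top and mutated CTCF at the bottom. Against the IAA control it rose with wild-type CTCF by a log2 fold change of 0.50 (SE 0.096, limma adjusted p = 8.48e-05). It fell with mutated CTCF by 0.25 (adjusted p = 0.0367). That call was lost without mutated replicate 2, where the log2 fold change was -0.15. It was also lost, at a similar log2 fold change, without either IAA control library (-0.25 and -0.26). The same held when only the 2 groups were compared (-0.25, adjusted p = 0.0618) and without the mean-variance trend in limma (-0.25, adjusted p = 0.0736). Mutated against wild-type CTCF gave -0.76 (adjusted p = 4.31e-08), 1.69-fold lower. With IAA alone the difference was -0.14 and did not pass (adjusted p = 0.256).

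Dazl (ENSMUSG00000010592.9, chromosome 17, 50279395 to 50293636, minus strand) encodes an RNA-binding protein that licenses germ cells for meiosis and gametogenesis by controlling translation. Normalized reads were 924 and 1051 in the untreated control, 986 and 966 in the IAA control, 1252 and 1422 with wild-type CTCF, and 660.3 and 677 with mutated CTCF. Untreated and IAA control libraries overlapped, every wild-type library lay above them and every mutated library below. The IAA difference was -0.01, with a 95% interval from -0.14 to 0.11 (adjusted p = 0.884). Dazl rose with wild-type CTCF by 0.45 (SE 0.064, adjusted p = 5.08e-07) and fell with mutated CTCF by 0.54 (adjusted p = 6.5e-09), both against the IAA control, which the comparisons share. Directly compared, the mutated group was 1.99-fold lower (log2 fold change -0.995, adjusted p = 5.73e-16). The same directions held against the untreated control, at 0.44 (adjusted p = 4.28e-07) and -0.56 (adjusted p = 2.44e-09). Zscan4d, the 1 listed marker of 2-cell-like cells, was likewise highest with wild-type CTCF (11.8 and 15.7 normalized reads, against 3.95 and 5.22 with mutated CTCF), but its mean was under the minimum of 10 and it was not tested. The summed trophectoderm markers (231 and 254 against 166 and 180) and primitive endoderm markers (442 and 474 against 385 and 410) also stood higher with wild-type than with mutated CTCF. The part of these markers in the Dazl and Prdm1 values was not tested.

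Ddx4 (also called VASA; ENSMUSG00000021758.14, chromosome 13, 112598333 to 112652475, minus strand) encodes the RNA helicase of germ granules. It was measured at 149.6 and 143 normalized reads in the untreated control, 191 and 201 in the IAA control, 111 and 114 with wild-type CTCF, and 176 and 182 with mutated CTCF. The 4 groups did not overlap, and the IAA control was highest and wild-type CTCF lowest. Ddx4 rose with IAA by 0.42 (SE 0.12, adjusted p = 0.00524). It fell with wild-type CTCF by 0.79 against the IAA control (adjusted p = 2.23e-06), ending below the untreated control as well (log2 fold change -0.37, adjusted p = 0.0111). With mutated CTCF it was 0.66 above the wild-type group (adjusted p = 3.28e-05), and its difference from the IAA control was -0.13 (95% interval -0.38 to 0.11, adjusted p = 0.431). Without untreated replicate 2 the IAA rise was 0.39 and missed the threshold (adjusted p = 0.059), and without untreated replicate 1 the fall below the untreated control did (-0.34, adjusted p = 0.087).

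Mael (ENSMUSG00000040629.8, chromosome 1, 166201201 to 166238747, minus strand) encodes Maelstrom, a component of the piRNA pathway that keeps transposons silent in germ cells. Its values were 98.6 and 119.8 normalized reads in the untreated control, 147 and 195 in the IAA control, 77.8 and 94.1 with wild-type CTCF, and 186 and 173 with mutated CTCF. Wild-type libraries were below all others, and the mutated libraries lay inside the range of the IAA control. Mael rose with IAA by 0.63 (SE 0.15, adjusted p = 5.49e-04). That call was lost without the mean-variance trend in limma (adjusted p = 0.0521) and without IAA replicate 2, where the rise was 0.43. With wild-type CTCF it fell by 0.97 against the IAA control (adjusted p = 1.54e-06). With mutated CTCF its difference from the IAA control was 0.09 (95% interval -0.21 to 0.38, adjusted p = 0.689), and it stood 0.72 above the untreated control (adjusted p = 1.09e-04). Mutated against wild-type CTCF gave 1.06 (adjusted p = 2.07e-07), a 2.08-fold higher level and the largest rise among the 9 genes in that comparison.

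Of the 3 chromosome axis and synaptonemal complex genes, Hormad1 (ENSMUSG00000028109.14, chromosome 3, 95559677 to 95587671, plus strand) encodes a HORMA-domain protein of the meiotic chromosome axis. It gave 1396 and 1496 normalized reads in the untreated control, 967 and 1069 in the IAA control, 928 and 1003 with wild-type CTCF, and 1172 and 1225 with mutated CTCF. The untreated libraries were above all others, the mutated ones came next, and the other 2 groups overlapped. Hormad1 fell with IAA by 0.51 (SE 0.058, adjusted p = 2.69e-09). It remained lower than the untreated control in the wild-type group (-0.58, adjusted p = 1.02e-10) and in the mutated group (-0.27, adjusted p = 2.58e-04). The latter call missed the threshold without the mean-variance trend in limma (adjusted p = 0.0552). Against the IAA control the wild-type group differed by -0.08 (adjusted p = 0.343), or -0.13 after median-of-ratios rescaling (adjusted p = 0.0404). With mutated CTCF Hormad1 rose by 0.24 (adjusted p = 0.00137). That call was lost without the mean-variance trend (adjusted p = 0.0832) and without IAA replicate 1, where the rise was 0.16. Mutated was above wild-type CTCF by 0.31 (adjusted p = 4.52e-05).

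Sycp3 (ENSMUSG00000020059.9, chromosome 10, 88459569 to 88473236, plus strand) encodes the lateral element protein of the synaptonemal complex. Its normalized reads were 326 and 366 in the untreated control, 344 and 330.0 in the IAA control, 224 and 247 with wild-type CTCF, and 303 and 332 with mutated CTCF. Wild-type libraries alone were set apart, below the other 6, whose values interleaved. Sycp3 fell with wild-type CTCF by 0.52 against the IAA control (SE 0.093, adjusted p = 3.6e-05) and by 0.55 against the untreated control (adjusted p = 6.13e-06). It was 0.43 higher with mutated than with wild-type CTCF (adjusted p = 3.39e-04). The differences with IAA (-0.04, 95% interval -0.23 to 0.15) and between mutated CTCF and the IAA control (-0.09, -0.28 to 0.10) did not pass.

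The whole Sycp3 gene body, 13668 bases, lies inside Chpt1, a choline phosphotransferase gene on the opposite strand. The libraries were strand-specific per the labels, but the strand setting of the counting is not stated, so reads of the 2 genes may not be fully separated. Chpt1 held 797 and 786 normalized reads in the untreated control, 878 and 848 in the IAA control, 647 and 684 with wild-type CTCF, and 760 and 810 with mutated CTCF. Chpt1 too was lowest with wild-type CTCF, at -0.38 against the IAA control (adjusted p = 1.01e-05), and was 0.24 higher with mutated than with wild-type CTCF (adjusted p = 0.0027). Its part in the Sycp3 values was not tested.

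Sycp1 (ENSMUSG00000027855.13, chromosome 3, 102818499 to 102936100, minus strand) encodes the transverse filament that holds the lateral elements together. It gave 123 and 110.3 normalized reads in the untreated control, 106 and 100.1 in the IAA control, 113 and 135 with wild-type CTCF, and 91.9 and 99.8 with mutated CTCF. Its mutated libraries were the lowest, by a small margin below the IAA control. None of its differences passed. The nearest was mutated against wild-type CTCF, at -0.36 (95% interval -0.65 to -0.07, adjusted p = 0.0502), which passed under several other settings, with adjusted p = 0.0276 without wild-type replicate 1. This direction is that of Dazl and Prdm1 and opposite to that of Sycp3 and Hormad1.

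Taf7l and Slc25a31 are testis genes whose promoters are methylated in somatic cells. Taf7l (ENSMUSG00000009596.9, chromosome X, 134460118 to 134476490, minus strand) encodes a testis-enriched TFIID subunit. It held 47.6 and 37.9 normalized reads in the untreated control, 47.6 and 24.2 in the IAA control, 69.9 and 69.5 with wild-type CTCF, and 41.8 and 35.6 with mutated CTCF. Both wild-type libraries were above the other 6, which overlapped, and the 2 IAA control libraries differed from each other most. Its IAA difference of -0.31 did not pass (adjusted p = 0.322) and became -0.79 (0.0209) without IAA replicate 1. Taf7l rose with wild-type CTCF by 1.01 against the IAA control (SE 0.24, adjusted p = 0.00113) and by 0.70 against the untreated control (adjusted p = 0.0166). It was 0.84 lower with mutated than with wild-type CTCF on the log2 scale (log2 fold change -0.84, adjusted p = 0.00568). These values rest on 22 to 80 reads per library: without IAA replicate 2, the one of 22 reads, the wild-type rise was 0.54 and did not pass (adjusted p = 0.118), and without untreated replicate 2 the second rise did not either (0.191). Without the mean-variance trend in limma, the direct difference (adjusted p = 0.114) and both rises (0.0826 and 0.14) missed the threshold.

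Slc25a31 (ENSMUSG00000069041.8, chromosome 3, 40708855 to 40726096, plus strand) encodes the ADP/ATP carrier of sperm mitochondria, AAC4. It was the lowest of the 9 per kb of exon. Its libraries gave 32.6 and 31.9 normalized reads in the untreated control, 21.4 and 15.4 in the IAA control, 25.4 and 28.9 with wild-type CTCF, and 14.6 and 13.8 with mutated CTCF, resting on 14 to 39 reads each. The 4 groups did not overlap, with the untreated control highest and mutated CTCF lowest. Slc25a31 fell by 1.13 from the untreated control to mutated CTCF (SE 0.29, adjusted p = 0.00191). It fell by 0.79 with IAA (adjusted p = 0.0286) and was lower with mutated than with wild-type CTCF (log2 fold change -0.88, adjusted p = 0.0161). Those 2 calls were lost when single libraries were left out, the IAA call in 3 of 4 cases (adjusted p = 0.108, 0.122 and 0.213) and the other without mutated replicate 2 (0.0634) or wild-type replicate 2 (0.113).

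**Figure D3:**
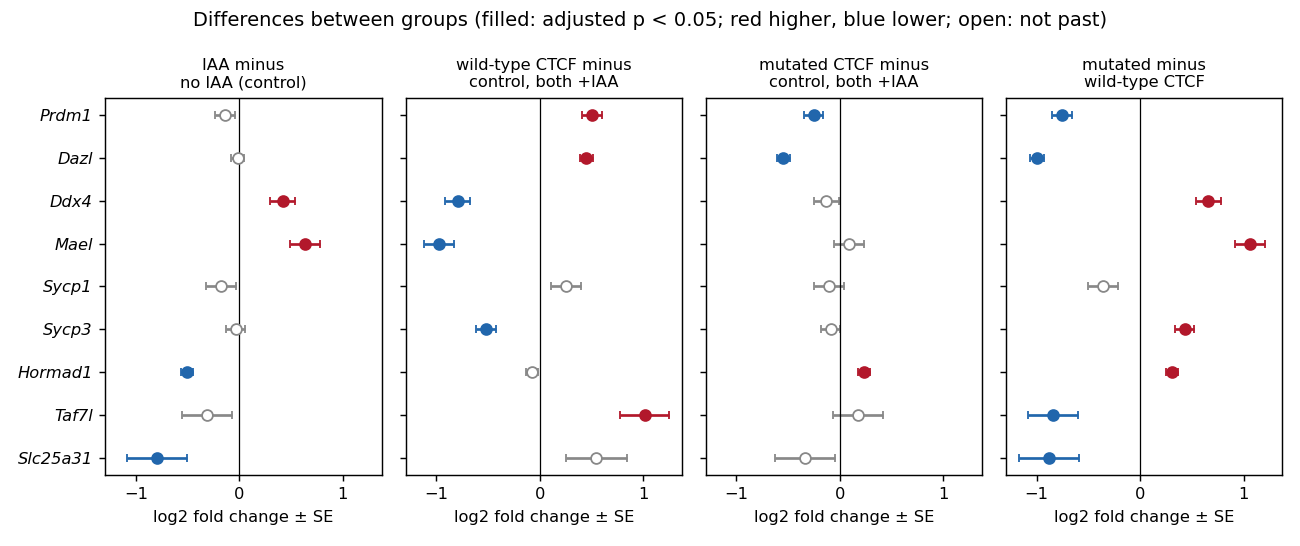
Log2 fold changes of the 9 genes (horizontal axis, on the log2(normalized reads + 1) scale, bars ± SE) in 4 comparisons; filled points passed adjusted p under 0.05, red for higher and blue for lower. In the last panel, mutated against wild-type CTCF, 4 genes are higher, 4 lower, and Sycp1 is open at -0.36.

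The calls at the 9 genes are set here beside those over all genes, with no test of the list as a whole. Because the genes were chosen with earlier results of these data known, a share above that of all genes is only a description. With IAA, 4 of 9 passed, 2 higher (Ddx4 and Mael) and 2 lower (Hormad1 and Slc25a31), a share near the 37.7% of all genes tested that passed. The wild-type line set against the IAA control gave 6 of 9, 3 higher (Prdm1, Dazl and Taf7l) and 3 lower (Ddx4, Mael and Sycp3), against 31.6% of all genes. With mutated CTCF against the same control 3 of 9 passed, Hormad1 higher and Dazl and Prdm1 lower, near the 34.3% of all genes. The IAA and mutated CTCF counts moved when single libraries were left out, as given in the closing section. Mutated against wild-type CTCF gave 8 of 9, 4 in each direction, against the 34.7% already given.

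The median log2 fold change of the 9 genes was -0.14 with IAA, 0.26 with wild-type CTCF, -0.10 with mutated CTCF and -0.36 for mutated against wild-type CTCF, while the medians over all genes were close to 0 (-0.0017, 0.057, 0.055 and -0.0087). These medians hide opposite movements. The median absolute log2 fold change was 0.76 for mutated against wild-type CTCF, against 0.18 over all genes, and 0.18 for mutated CTCF against the IAA control, the same as over all genes. Libraries of the 2 groups did not overlap at 6 of 9 genes with IAA (68.2% of all genes), at 8 with wild-type CTCF (64.4%), at 6 with mutated CTCF (65.1%) and at 9 for mutated against wild-type CTCF (65.5%). With 2 libraries a group such separation is common.

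Against the untreated control, 6 of 9 genes passed with wild-type CTCF (43.2% of all genes) and 5 of 9 with mutated CTCF (37.8%). Libraries did not overlap at 8 (71.5% of all genes) and at 7 of the 9 (67.9%). With wild-type CTCF, Taf7l, Dazl and Prdm1 were above the untreated level and Hormad1, Sycp3 and Ddx4 below it. With mutated CTCF, 1 of the 5, Mael, was above it (24% of all genes were called higher), and 4, Hormad1, Prdm1, Dazl and Slc25a31, were below (13.7% called lower). The split over all genes, 3801 higher and 2174 lower, became 2593 and 3421 when libraries were rescaled to the same total. For wild-type CTCF against the untreated control it went from 4367 and 2461 to 3222 and 3853. The groups compared here differ in line as well as in IAA.

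The genes past the threshold were compared with the nearest tested gene on each side. For mutated against wild-type CTCF the 8 genes had 16 such neighbours. Of these, 3 passed in the same direction, 1 in the opposite direction and 12 did not pass, where 34.7% of all genes passed. Golph3l, 1.26 kb from Hormad1, Drp2, 3.54 kb from Taf7l, and Intu, 4.08 kb from Slc25a31, did not pass in any of the 4 comparisons shown in the plot of differences. Hspa4l, 18.4 kb from Slc25a31 on its other side, fell with IAA as Slc25a31 did (-0.58, limma adjusted p = 0.00226). Gpa33, 34.7 kb from Mael, fell with IAA (-0.34, adjusted p = 6.77e-06), where Mael rose. Of the 8 neighbours of genes called with IAA, 2 passed in the same direction, 1 in the opposite and 5 did not. Of all genes, 37.7% passed there. Near Ddx4, Gm3226, a processed pseudogene 3.25 kb away, was higher with wild-type CTCF against the IAA control (0.64, adjusted p = 0.0235), where Ddx4 fell. On the other side of Ddx4, Slc38a9, 8.28 kb away, rose with IAA (0.27, adjusted p = 7.66e-04), as Ddx4 did. Dazl was the only one whose neighbours on both sides moved with it: Rftn1, 88.7 kb away, gave -0.46 (adjusted p = 0.00123) and Plcl2, 216 kb away, -0.52 (adjusted p = 6.39e-08). Against the IAA control both also rose with wild-type CTCF as Dazl did, by 1.00 at Rftn1 (adjusted p = 3.22e-09) and 0.61 at Plcl2 (adjusted p = 2.44e-09). With IAA alone, however, Rftn1 fell by 0.99 (adjusted p = 1.73e-09) and Plcl2 by 0.46 (adjusted p = 5.53e-07), where Dazl gave -0.01. With mutated CTCF against the IAA control Rftn1 rose by 0.54 (adjusted p = 1.86e-04) while Dazl fell. Prep, 539 kb from Prdm1, was lower with mutated than wild-type CTCF by a smaller amount (-0.10, adjusted p = 0.019), and Timm8a1, 60.8 kb from Taf7l, was higher (0.29, adjusted p = 0.0205) where Taf7l was lower.

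Other genes of the same pathways were taken from lists that together named 107 genes beside the 10, of which 88 were listed in the table and 85 tested. These lists too were chosen with earlier results of these data known. For mutated against wild-type CTCF, 40 of the 85 passed (47.1%, against 34.7% of all genes), 22 higher and 18 lower, and with IAA 37 passed (43.5%, against 37.7%), 19 higher and 18 lower. With IAA all genes divided into 3062 higher and 2905 lower, or 2569 and 4098 when rescaled to the same total. With wild-type CTCF 32 of the 85 passed (37.6%, against 31.6%), 14 higher and 18 lower, and with mutated CTCF, each against the IAA control, 35 (41.2%, against 34.3%), 16 higher and 19 lower. Among all genes, calls with wild-type CTCF leaned the other way, 3407 higher and 1584 lower, although that lean was 2548 to 2513 after median-of-ratios rescaling. With mutated CTCF the split over all genes was 3473 higher and 1960 lower, or 2706 and 2682 after rescaling.

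**Figure D4:**
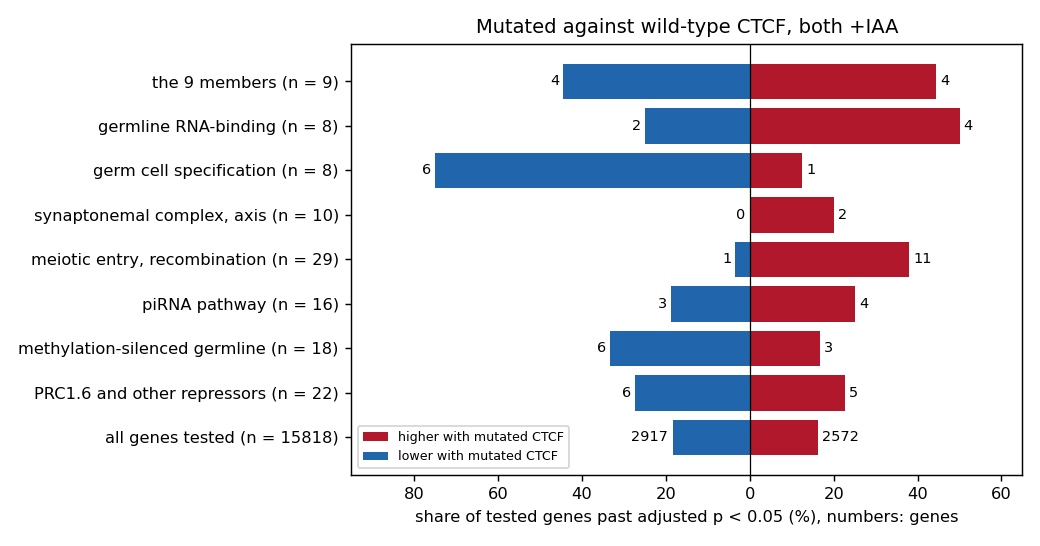
Share of tested genes (horizontal axis, percent) that were higher (red, right) or lower (blue, left) with mutated than with wild-type CTCF in each gene list; numbers are genes, and the other lists leave out the 9 genes of the first bar. Of 29 meiotic entry and recombination genes 11 are higher, 1 is lower and 17 did not pass; of 8 germ cell specification genes 1 is higher and 6 are lower; of all 15818 genes tested 2572 are higher and 2917 lower.

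Of 29 genes of meiotic entry and recombination, 11 were higher with mutated than with wild-type CTCF, 1 was lower and 17 did not pass. The shares higher and lower were 37.9% and 3.4%, against 16.3% and 18.4% of all genes. The median was 0.11 for the list and -0.0087 over all genes. Meiob, a single-strand DNA-binding protein of meiotic recombination, had 27.6 and 34.5 normalized reads in the untreated control, 21.4 and 13.2 in the IAA control, 6.12 and 5.35 with wild-type CTCF, and 36.6 and 34.6 with mutated CTCF. Its wild-type libraries were far below the others, each under 10 reads, and mutated against wild-type CTCF gave 2.44 (SE 0.32, adjusted p = 7.7e-08). Dmc1, the meiotic strand-exchange recombinase, had 1019 and 1012, 987 and 1014, 688 and 729, and 1249 and 1281 normalized reads in the same order. The wild-type libraries were lowest and the mutated ones highest, with no difference past the threshold after IAA (-0.02, adjusted p = 0.805), a fall of 0.50 with wild-type CTCF (adjusted p = 5.14e-09) and a mutated to wild-type difference of 0.84 (adjusted p = 3.7e-15).

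Gm960, the table's name for Top6bl, the partner of SPO11 in making meiotic breaks, was 1.19 higher with mutated than with wild-type CTCF (adjusted p = 7.75e-06). In the wild-type line, compared with the IAA control, 9 of the 29 were lower, Meiob, Stra8, Mnd1, Dmc1 and Mei4 among them, and 3 were higher. Over all genes 10% were lower and 21.5% higher, a split near even after median-of-ratios rescaling (2548 higher and 2513 lower). The summed primitive endoderm markers were also lower in the wild-type line (521 and 560 to 442 and 474 normalized reads), as was Star (132 and 149 to 104 and 114). The trophectoderm sums overlapped (225 and 239 to 231 and 254). The part of these markers in the count was not tested. With IAA 11 of the 29 passed, a share near the 37.7% of all genes: 4 were higher (Mnd1 by 1.31, Stra8, Mei4 by 1.15 and Mlh3 by 0.32) and 7 lower, of which Tex15 fell by 0.84 (adjusted p = 1.41e-12).

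Stra8, the gene that retinoic acid switches on at meiotic entry in germ cells, had 365 and 397 normalized reads in the untreated control, 903 and 908 in the IAA control, 427 and 410 with wild-type CTCF, and 235 and 220 with mutated CTCF. The IAA control was the highest group and the mutated group was below the untreated one. Stra8 rose with IAA by 1.25 (SE 0.079, adjusted p = 1.6e-16) and with wild-type CTCF its distance from the untreated control was 0.14 (adjusted p = 0.166). It was the 1 gene of its list that was lower with mutated than with wild-type CTCF (-0.87, adjusted p = 1.1e-11), a direction shared with Dazl and Prdm1.

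Of 8 other genes of primordial germ cell specification, 6 were lower with mutated than with wild-type CTCF (18.4% of all genes were lower). Only Nanos3 was higher (16.3% of all genes), and the median of the list was -0.38, against -0.0087 over all genes. Those lower were Ifitm1 (-0.83), Ifitm3 (-0.78), Dppa3 (-0.78), Tfap2c (-0.55), Prdm14 (-0.22) and Kit (-0.14). TFAP2C and PRDM14 work with PRDM1 in specifying germ cells, and like Prdm1 both were higher with wild-type CTCF than in the IAA control, by 0.45 and 0.26. Ifitm1 held 98.6 and 112 normalized reads in the untreated control, 267 and 258 in the IAA control, 361 and 451 with wild-type CTCF, and 202 and 255 with mutated CTCF. Dppa3, a maternal factor that protects DNA methylation in the early embryo, held 20.1 and 35.3, 100.1 and 114, 65.6 and 57.8, and 39.7 and 31.6 in the same order. Dppa3 rose with IAA by 1.96 (adjusted p = 1.94e-09), where Prdm1 did not pass. The trophectoderm and primitive endoderm sums given beside Dazl were lower with mutated than with wild-type CTCF as well, and their part in the values of this list was not tested. Ifitm1 and Ifitm3 are related copies, and reads split between them are uncertain.

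The piRNA genes beside Mael went both ways, 4 of 16 higher and 3 lower for mutated against wild-type CTCF (median 0.09). The share called higher was 25%, against 16.3% of all genes, and that called lower 18.75%, near the 18.4% of all genes. Asz1, a germ granule scaffold, held 65.2 and 70.7 normalized reads in the untreated control, 60.7 and 51.7 in the IAA control, 81.3 and 84.5 with wild-type CTCF, and 30.3 and 19.8 with mutated CTCF. It was therefore lowest where Mael was high, at -1.72 for mutated against wild-type CTCF (adjusted p = 1.45e-08). Tdrd7, a Tudor protein of the chromatoid body, gave -1.09 (adjusted p = 0.00353) from 8.90 to 36.9 normalized reads per library. Mov10l1, the helicase that feeds piRNA precursors into processing, gave 0.79 (adjusted p = 7.87e-06) and Tdrd12 0.43 (adjusted p = 5.2e-06). Tdrd12 held 692 and 692 normalized reads in the untreated control, 357 and 388 in the IAA control, 565 and 587 with wild-type CTCF, and 779 and 768 with mutated CTCF. It fell with IAA by 0.89 (adjusted p = 8.29e-14), the opposite of Mael. Piwil4, a nuclear Piwi protein, rose with IAA by 1.37 (adjusted p = 2.25e-07) and with mutated against wild-type CTCF differed by 0.01.

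Of 8 other germline RNA-binding genes, 4 were higher with mutated than with wild-type CTCF (Ybx2, Cpeb1, Nanos3 and Tex14) and 2 were lower (Rbm46 and Boll), with a median of 0.25. Over all genes 16.3% were higher and 18.4% lower, with a median of -0.0087. Boll, a gene of the same family as Dazl, held 279 and 301 normalized reads in the untreated control, 206 and 191 in the IAA control, 308 and 359 with wild-type CTCF, and 217 and 216 with mutated CTCF. Like Dazl it rose with wild-type CTCF against the IAA control (0.74, adjusted p = 2.46e-07) and was lower with mutated CTCF than with wild-type (-0.62, adjusted p = 5.21e-06). Boll fell with IAA by 0.54 (adjusted p = 3.12e-05), and its difference between mutated CTCF and the IAA control was 0.12 (adjusted p = 0.371).

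Among 10 other axis and synaptonemal complex genes only Stag3 (0.42) and Smc1b (0.29), both meiotic cohesin subunits, were higher with mutated than with wild-type CTCF, and none was lower (median 0.01). That is 20% higher, near the 16.3% of all genes, where 18.4% of all genes were lower. Among 18 other testis and germ cell genes silenced by promoter methylation in somatic cells, 3 were higher and 6 lower (median -0.28). The share called higher was 16.7%, near the 16.3% of all genes, and that called lower 33.3%, against 18.4%. The genes called lower were Rhox2a (-1.28), Usp26 (-0.86), Tuba3b (-0.85), Rhox5 (-0.77), Sohlh2 (-0.74) and Tex19.1 (-0.51), and those called higher Majin, Zcwpw1 and Tuba3a. With IAA 6 of these 18 were higher and 0 lower by limma (19.4% and 18.4% of all genes). The summed primitive endoderm markers (434 and 476 to 521 and 560 normalized reads) and trophectoderm markers (168 and 184 to 225 and 239) were also higher with IAA without overlap, and their part in this count was not tested. Rhox2a, Tuba3a and Tuba3b have near-identical copies, so their counts are uncertain.

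Repressors of germline genes were taken as a further list. Of its 22 genes for PRC1.6, histone H3 lysine 9 and DNA methylation factors, 11 did not pass for mutated against wild-type CTCF (median -0.03). With mutated CTCF 5 were higher (22.7%, against 16.3% of all genes) and 6 lower (27.3%, against 18.4%). The largest of these differences was at E2f6, which held 354 and 357 normalized reads in the untreated control, 395 and 342 in the IAA control, 366 and 414 with wild-type CTCF, and 274 and 307 with mutated CTCF. It differed by -0.42 on the log2 scale (adjusted p = 3.03e-04). Yaf2, another PRC1.6 subunit, gave -0.36 (adjusted p = 9.86e-05), Dnmt3b -0.25 (adjusted p = 0.00509), Dnmt1 -0.18 (adjusted p = 0.00315) and Setdb1 -0.14 (adjusted p = 0.00634). Wdr5 was higher by 0.18 (adjusted p = 2.93e-04) and Mga by 0.10 (adjusted p = 0.00741).

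When the wild-type line was set against the IAA control, 11 of the 22 were higher, by 0.13 (Uhrf1) to 0.29 (Ehmt2), and Rybp and Atf7ip were lower. Of all genes, 21.5% were higher and 10% lower there, the lean that median-of-ratios rescaling removed. With IAA, Setdb1 rose by 0.43 (adjusted p = 2.59e-11) and Dnmt3b by 0.39 (adjusted p = 2.39e-05), and Dnmt3a fell by 0.36 (adjusted p = 9.2e-06) and Rnf2 by 0.30 (adjusted p = 2.94e-07). In the comparison of the 2 overexpressing lines the PRC1.6 list members thus went both ways, E2f6 and Yaf2 lower and Wdr5, Hdac2, Rnf2, Mga and Rybp higher by 0.08 to 0.18. Whether the repressors bear on the 9 germline genes was not tested.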

How the data were processed

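TT-seq was measured in 8 libraries, 4 groups of 2 by their titles. The authors deposited 1 table of normalized read counts, a signal per gene and library; per the submitters' processing notes, Trim Galore, STAR, featureCounts, DESeq2 and the build mm10 were used, with versions and roles not given in the sources used here. Every value was a whole multiple of 1 step per library (tolerance 0.001 reads), so the reads at the listed genes could be recovered. Each row of the table reached 10 reads in 2 libraries or more. No count model was run. Of the gene IDs, 16917 were in GENCODE M21.

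Values were tested as log2(value + 1) with limma 3.58.1 in R 4.3.3, 1 coefficient per group over all 8 libraries (4 residual degrees of freedom), with a mean-variance trend. The variance of each gene was moderated toward that trend, which adds degrees of freedom borrowed from the other genes. The pseudocount of 1 understates changes of low genes. Genes with a mean of at least 10 were tested, and p-values were Benjamini-Hochberg adjusted over all 15818 within each of 6 comparisons, threshold 0.05. On simulated counts with 200 genes changed in the IAA comparison, 86% of 2-fold and 99% of 4-fold changes were called, with 6 unchanged genes called. The simulation gave every gene the same dispersion and the libraries no shift. It therefore checks the fit and does not measure the rate of false calls in these data. Molecular identifiers are not mentioned in the labels, so PCR copies may be among the reads.

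The 9 genes and all lists were chosen with earlier results of these data known. Of the list genes, those named had, in 4 comparisons, one of the 3 highest or 3 lowest log2 fold changes past the threshold, with a mean of at least 20 and no overlap between groups; Stra8 was named in any case. Other names give the members of a count, and Chpt1 and the neighbours are named by position. Alternatives were another pseudocount, filter, scaling, trend, replicate block, only the 2 groups compared, and each library left out. Columns of samples outside the series numbered 0.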

Additional observations from a re-analysis of the deposited data

Results flagged for a closer look

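Dazl and Prdm1 were singled out because the wild-type and mutated CTCF lines lay on opposite sides of the IAA control, each past the threshold. The direct difference between the 2 lines passed as well, and CTCF form cannot be told apart from line. For Dazl the direct difference, mutated minus wild-type CTCF, was -0.995 on the log2 scale (limma adjusted p = 5.73e-16), with both wild-type libraries above and both mutated libraries below the 4 control libraries. For Prdm1 it was -0.76 (adjusted p = 4.31e-08), again with no overlap, although its fall with mutated CTCF against the IAA control is one of the calls lost when single libraries are left out or only the 2 groups are compared.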

How the results depend on the processing

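None of the log2 fold changes of the 9 genes changed sign at a called value under the alternatives run; over these genes, comparisons and alternatives 650 values kept their side of the threshold, 22 fell below it and 18 passed it newly. Without the mean-variance trend limma called fewer genes: 3946 in place of 5967 with IAA, 2379 in place of 4991 with wild-type CTCF, 3228 in place of 5433 with mutated CTCF, 3263 in place of 5489 for mutated against wild-type CTCF, 4878 in place of 6828 for wild-type CTCF against untreated and 3869 in place of 5975 for mutated CTCF against untreated, and 1 of the 9 genes in place of 3 with mutated CTCF; the cause was not tested. Beside the Taf7l calls, that setting lost the IAA rise of Mael (adjusted p = 0.0521), the calls of Hormad1 (0.0832) and Prdm1 (0.0736) with mutated CTCF against the IAA control, and that of Hormad1 with mutated CTCF against untreated (0.0552); it newly called Ddx4 in the latter comparison (0.019). Leaving out each library in turn gave 4284 to 4773 genes with IAA and 2 to 5 of the 9, 3274 to 4622 with wild-type CTCF and 5 to 6 of the 9, 3963 to 4426 with mutated CTCF and 1 to 3 of the 9, 3969 to 4875 for mutated against wild-type CTCF and 7 to 9 of the 9, 4996 to 6197 for wild-type CTCF against untreated and 5 to 7 of the 9, and 4234 to 5000 for mutated CTCF against untreated with 5 of the 9 each time. The IAA count of the 9 was 2 without IAA replicate 2 (Mael and Slc25a31 lost) and 2 without untreated replicate 2 (Ddx4 and Slc25a31 lost). The count with mutated CTCF was 1 without IAA replicate 1, and 3274 is the count of genes with wild-type CTCF without wild-type replicate 2. Across genes, deviations of same-numbered replicates were not correlated (mean correlation 0.0037, from -0.022 to 0.028 over 6 pairs of groups). That measure leaves out any shift shared by all genes. The median-of-ratios factor was higher in replicate 2 than in replicate 1 of each group. It was 0.978 and 0.997 in the untreated control and 0.976 and 0.996 in the IAA control. With wild-type CTCF it was 1.007 and 1.044, and with mutated CTCF 1.007 and 1.036. Whether the numbers pair the libraries is therefore not settled. With the replicate number as a block, 6423, 5532, 5920, 5981, 7237 and 6397 genes and 4, 6, 3, 9, 7 and 6 of the 9 were called in the 6 comparisons, IAA, wild-type, mutated, mutated against wild-type, and the last pair against untreated. The edgeR and DESeq2 alternatives were not run, since the deposited values are normalized and the reads back-calculated from them were used here only to describe depth. Taf7l (22 to 80 reads per library) and Slc25a31 (14 to 39) rest on few reads.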
